A study of Mus musculus with 24 samples.

Results

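SWI/SNF complexes, called BAF complexes in mammals, are chromatin remodellers. An ATPase subunit uses ATP to slide or evict nucleosomes, and a scaffold of further subunits holds the ATPase, contacts the nucleosome and guides the complex to enhancers and promoters. Subunits come in families of paralogs, of which a single complex holds a chosen few. In blood formation these complexes are known for opening the lineage enhancers of stem, erythroid, lymphoid and granulocytic cells. The RNA of 10 subunits was examined in bone marrow, namely the ATPases Smarca4 and Smarca2, the core and scaffold subunits Smarcb1, Smarcc1, Smarcc2, Smarcd1, Smarcd2 and Smarce1, and the ARID subunits Arid1a and Arid1b. They were found by symbol among the 54752 genes of the expression table, and all 10 were among the 12373 genes that exceeded 1 TPM in at least 1 library. TPM is a level corrected for transcript length and scaled to the same sum in each library, so it can be compared between genes. The group was selected on the fall of Smarca4 in these same data, both in flight and without Nrf2. The values of Smarca4 are therefore given with no test, and the other 9 subunits were tested.

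The libraries were made from bone marrow cells of 24 male C57BL/6 mice, with 1 library per mouse and 6 mice per group. GC-WT were wild-type mice kept on the ground, FL-WT were wild-type mice kept in space for 31 days, and GC-KO and FL-KO were the corresponding Nrf2-KO mice, which lack the transcription factor Nrf2 and with it much of the antioxidant response. Flight mice were 8 weeks old when shipped to the launch site 3 weeks before launch. All mice were housed singly, and ground mice were kept under simulated flight conditions at another site, so that site and flight cannot be told apart. The marrow of flight mice was taken after their return to the ground, so that landing and the time since cannot be told apart from the stay in space either, and "in flight" below names the FL groups. Cells of the pelvis and tibia were frozen before RNA was isolated. Nfe2l2, the gene of Nrf2, was at 17.1 to 26.1 TPM in GC-WT mice and at 11.4 to 27.3 TPM in FL-WT mice. In GC-KO mice it was at 3.6 to 7.18 TPM and in FL-KO mice at 2.22 to 4.31 TPM, so the Nrf2-KO libraries lay below the wild-type libraries without reaching 0.

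The table holds no read counts, so the depth of the libraries is unknown and no counting error can be given. From 5 small RNAs came 41.0% to 58.2% of TPM in GC-WT and 40.1% to 59.6% in FL-WT libraries. In GC-KO libraries the share was 35.4% to 48.4% and in FL-KO libraries 46.1% to 59.3%. TPM has the same sum in each library, so a larger share leaves less for other genes. The part of this share in the subunit levels was not tested. Genes above 1 TPM numbered 10325 to 11413 in GC-WT, 9347 to 10858 in FL-WT, 9918 to 11060 in GC-KO and 8748 to 9996 in FL-KO libraries. The FL-KO libraries thus held fewer such genes than any GC-WT library, and the part of this in the subunit levels was not tested. Markers of erythroid cells (10 of 11 matched, summed range 86990 to 244800 TPM over all libraries) and neutrophils (8 of 8, 31170 to 67960 TPM) were high in all groups, and no matched marker of any of 9 cell type lists was at 0 in all libraries. The material is bulk marrow, in which fewer cells of a type and less RNA per cell cannot be told apart. Some libraries lay at the end of their group for most subunits. GC-WT mouse 10 had the lowest level in its group for 9 of the 10 subunits, and FL-WT mouse 07 the highest in its group for all 10. FL-WT mouse 05 was the lowest of its group for 9, GC-KO mouse 11 the highest for 8 and GC-KO mouse 04 the lowest for 8.

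The promoters of the subunits are shown first, since one arm of the study removes a transcription factor. RefSeq start sites on GRCm38.p6 gave 10 windows for 9 of the subunits, Arid1a having 2. Each window runs from 250 bases before the start to 50 after it. The windows of Smarcc1, Smarcd2 and Arid1b and the Arid1a window not printed below lie wholly inside the annotated gene, past its outermost start. The bases before the start are printed for Smarca4 and for the 2 subunits called at a fold change of at least 2 in both comparisons of genotype whose stretch overlaps no annotated transcript of the gene. Capitals mark the GC box GGGCGG, on either strand, the core letters bound by SP and KLF factors.
Smarca4, chr9:21615919-21616168, + strand: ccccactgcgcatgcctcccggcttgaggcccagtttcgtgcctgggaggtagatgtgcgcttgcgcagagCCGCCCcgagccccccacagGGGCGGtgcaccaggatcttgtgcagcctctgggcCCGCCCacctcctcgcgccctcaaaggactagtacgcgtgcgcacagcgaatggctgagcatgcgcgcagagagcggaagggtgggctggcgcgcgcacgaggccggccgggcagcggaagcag
Smarcc2, chr10:128458986-128459235, + strand: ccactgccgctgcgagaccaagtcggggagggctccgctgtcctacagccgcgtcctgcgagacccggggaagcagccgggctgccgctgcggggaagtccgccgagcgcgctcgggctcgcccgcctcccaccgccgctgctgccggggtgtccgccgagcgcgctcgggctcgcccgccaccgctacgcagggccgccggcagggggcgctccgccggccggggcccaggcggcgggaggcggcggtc
Arid1a, chr4:133756770-133757019, - strand: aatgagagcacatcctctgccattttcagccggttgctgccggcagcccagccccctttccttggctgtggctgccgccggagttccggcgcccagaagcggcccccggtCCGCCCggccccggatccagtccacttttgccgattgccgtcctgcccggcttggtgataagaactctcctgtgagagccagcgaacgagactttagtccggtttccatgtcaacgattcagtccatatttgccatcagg

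All 10 windows held a GC box, that of Smarcc2 past the start and so outside the stretch above, against 61.4% of the 10966 windows of tested genes. Their GC content had a median of 68.7% and ran from 55.0% for Smarcd2 to 81.0% for Smarcc2, where the median of tested genes was 60.3%. None held the letters TGACNNNGC on either strand, the core of the antioxidant response element that Nrf2 binds with its small Maf partners, which 14.6% of the windows of tested genes held. None held TGACGTCA, the CRE, which was in 2.95% of those windows. A match is a run of letters and not a measured binding site, and elements farther from the start were not searched. The RNAs are rich in G and C and long as well. The median GC content of the 10 transcripts was 53.6% against 49.1% for tested genes, and the median longest transcript 5847 nt against 2990.5 nt. Smarce1 at 39.1% and Smarcc1 at 48.4% lay below the median GC content, and Smarcd2 at 2747 nt below the median length.

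All 10 subunits had a lower mean in flight than on the ground and in Nrf2-KO than in wild-type mice (the plot of TPM by mouse). The summed TPM of all 10 was 83.6 to 145.1 in GC-WT mice, 53.2 to 136.5 in FL-WT mice, 41.5 to 85.6 in GC-KO mice and 28.8 to 42.3 in FL-KO mice. Only the FL-KO range lay apart from those of GC-WT and FL-WT mice. These sums include Smarca4, so they are partly made of the values that chose the group. In GC-WT mice the means ran from 22.3 TPM for Smarcd2 over Smarca4 (20.5), Smarcc2 (17.3), Arid1a (16.1), Smarcb1 (12.2), Smarcc1 (10.1), Smarce1 (9.08), Arid1b (8.66) and Smarca2 (5.42) to 3.39 TPM for Smarcd1. In FL-KO mice Smarcd2 was still first (6.85 TPM) and Smarcd1 last (0.675 TPM), while Smarce1 (5.29 TPM) stood second and Smarca4 (3.42 TPM) after Smarcc2 and Smarcb1. In each group the ranges of neighbours in this order overlapped, except for Arid1b and Smarcd1 in FL-KO mice.

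**Figure D1:**
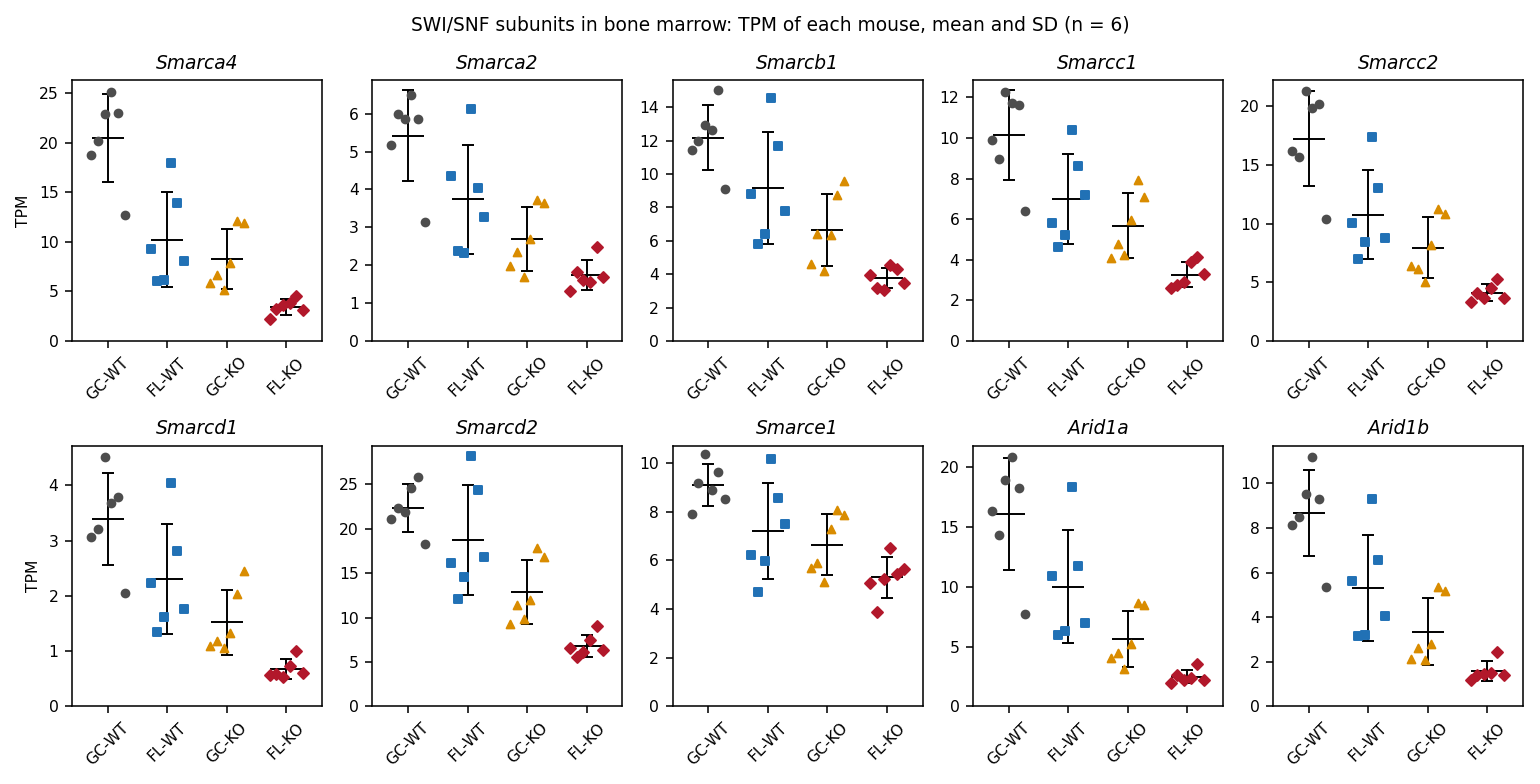
TPM of the 10 subunits in each of the 24 mice, by group, with a panel per gene and an axis starting at 0; bars are mean and SD of 6 mice. FL-KO mice are lowest on average in every panel. GC-WT mouse 10 is the lowest of its group in 9 panels and FL-WT mouse 07 the highest of its group in all 10, and for Smarce1 the 4 groups lie closest together.

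Of the ATPases, Smarca4 (BRG1; ENSMUSG00000032187.16, chromosome 9 of GRCm38, 21616169 to 21704230) is the engine of most complexes in dividing blood cells. It was at 12.7 to 25.2 TPM (median 21.5) in GC-WT mice, 6.08 to 17.9 (8.69) in FL-WT mice, 5.16 to 12.1 (7.30) in GC-KO mice and 2.19 to 4.56 (3.42) in FL-KO mice. FL-KO mice overlapped no other group, and GC-KO mice lay below all GC-WT mice by a narrow margin that GC-WT mouse 10 sets. Its log2 fold change on the log2(TPM + 1) scale was -1.0 in FL-WT against GC-WT, -1.03 in FL-KO against GC-KO, -1.24 in GC-KO against GC-WT and -1.27 in FL-KO against FL-WT (SE 0.22 each). These values chose the group and carry no test.

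Smarca2 (BRM; ENSMUSG00000024921.17, chromosome 19, 26605050 to 26778322) is the alternative ATPase, which excludes Smarca4 from a complex. It was lower throughout, at 3.14 to 6.48 TPM (median 5.87) in GC-WT mice and 2.31 to 6.13 (3.65) in FL-WT mice. In Nrf2-KO mice it was at 1.70 to 3.73 TPM (2.52) on the ground and 1.33 to 2.47 (1.65) in flight. All 4 pairs of groups compared overlapped. Smarca2 changed by -0.47 in FL-WT against GC-WT (SE 0.18, adjusted p = 0.0485), by -0.40 in FL-KO against GC-KO (adjusted p = 0.0658), by -0.81 in GC-KO against GC-WT (adjusted p = 0.00104) and by -0.75 in FL-KO against FL-WT (adjusted p = 0.00106). Here and below, changes are on the log2(TPM + 1) scale, which understates those of genes at a few TPM, and adjusted p-values are from limma with Benjamini-Hochberg adjustment over the 12373 tested genes.

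Across the 9 tested subunits, 2 rules of calling were used. At an adjusted p under 0.1 alone, 8 were lower in FL-WT against GC-WT (all but Smarcd2, adjusted p = 0.187), where 39.0% of all tested genes were lower. In FL-KO against GC-KO 8 were lower (all but Smarce1, adjusted p = 0.106) beside 53.1% of all genes. All 9 were lower in GC-KO against GC-WT, beside 42.9%, and in FL-KO against FL-WT, beside 47.2%. When a fold change of at least 2 was required as well, as for the DEGs of the study, limma called 0 of 9 in FL-WT against GC-WT (background 0.938%) and 0 of 9 in FL-KO against GC-KO (background 2.13%). It called 3 in GC-KO against GC-WT (Arid1a, Arid1b and Smarcc2; background 3.04%) and 5 in FL-KO against FL-WT (those 3 and Smarcb1 and Smarcd2; background 8.36%).

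The median log2 fold change of the 9 was -0.47 in FL-WT against GC-WT, -0.64 in FL-KO against GC-KO, -0.81 in GC-KO against GC-WT and -1.04 in FL-KO against FL-WT. The median of all tested genes was itself below 0, at -0.24, -0.29, -0.22 and -0.25 in the same order. The 6 mice of the first group lay below all 6 of the second for 0 of 9 subunits in FL-WT against GC-WT (4.19% of all genes), 2 in FL-KO against GC-KO (Smarcd1 and Smarcd2; 18.4%), 2 in GC-KO against GC-WT (Smarcd2 and Arid1b; 9.15%) and 7 in FL-KO against FL-WT (all but Smarca2 and Smarce1; 20.6%). The 4 comparisons share groups and are not independent of each other.

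**Figure D2:**
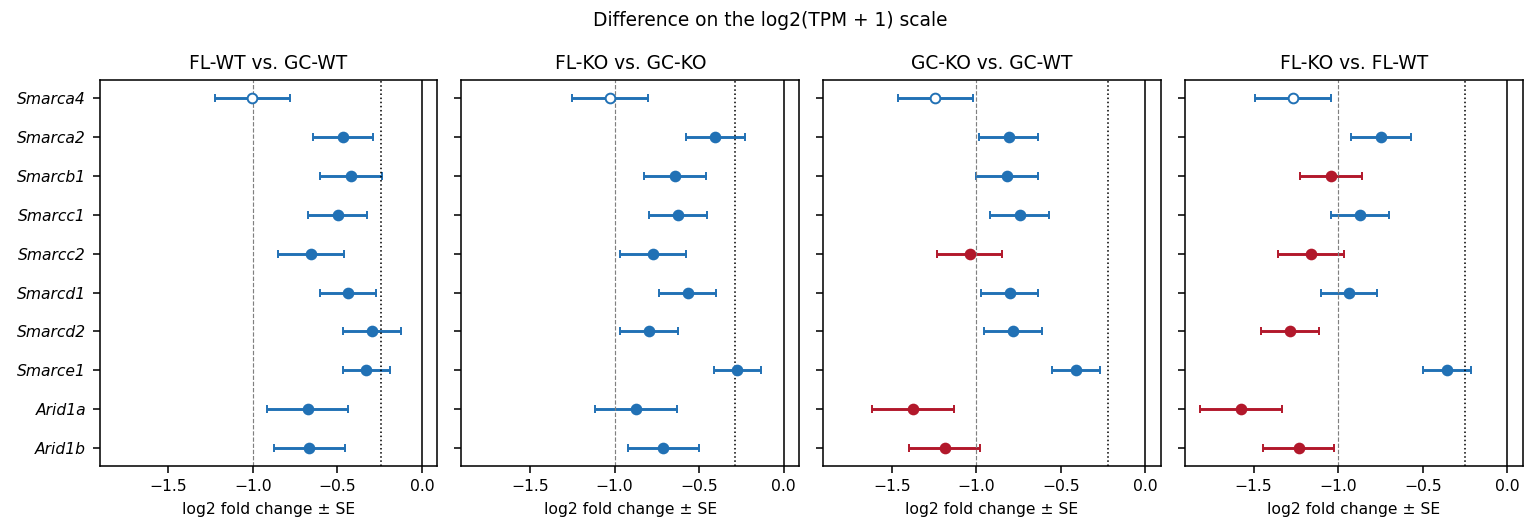
Difference of the 10 subunits in 4 comparisons on the log2(TPM + 1) scale with its SE; red points passed an adjusted p under 0.1 at 2-fold or more, and the open point is Smarca4, given without a test. The dotted line is the median of all tested genes and the dashed line a fold change of 2; Arid1a lies farthest to the left of the tested subunits in every panel, and Smarce1 lies near the dotted line.

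The wild-type comparison of flight with ground depended on single libraries. Without FL-WT mouse 05, 2 of the 9 subunits were lower at an adjusted p under 0.1 beside 23.0% of all tested genes, and without FL-WT mouse 06, 3 were, beside 24.6%. Without GC-WT mouse 06, 5 were, beside 26.2%, and without GC-WT mouse 07, 5 were, beside 30.1%. Without FL-WT mouse 07, the mouse with the highest levels, all 9 were lower, with a median of -0.59, and 58.8% of all genes were lower too. When GC-WT mouse 10 and FL-WT mouse 07 were both left out, all 9 were lower as well, beside 57.9% of all genes, with a median of -0.72. There was then 1 call at a fold change of at least 2, for which the share of all genes is not given here. Both mice were picked after their subunit levels were seen, the first for low and the second for high levels. The larger fall follows from that choice and is no support for it. Leaving out each library gave 7 to 9 in FL-KO against GC-KO, beside 36.3% to 57.7% of all genes. In GC-KO against GC-WT it was 9 each time, beside 35.6% to 48.4%, and in FL-KO against FL-WT it was 8 or 9, beside 39.7% to 55.7%.

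Smarcb1 (ENSMUSG00000000902.13, chromosome 10, 75896769 to 75921617) anchors the remodelling module on the nucleosome. It was at 9.09 to 15.01 TPM (median 12.3) in GC-WT mice, 5.83 to 14.5 (8.29) in FL-WT mice, 4.19 to 9.58 (6.37) in GC-KO mice and 3.07 to 4.58 (3.74) in FL-KO mice. FL-KO mice lay below all FL-WT mice and overlapped GC-KO mice. The change was -0.42 in FL-WT against GC-WT (SE 0.18, adjusted p = 0.0801) and -0.64 in FL-KO against GC-KO (adjusted p = 0.00793). It was -0.82 in GC-KO against GC-WT (adjusted p = 0.0012) and came to -1.04 in FL-KO against FL-WT (adjusted p = 4.51e-05). The last lies just past a fold of 2 and fell short of it without FL-WT mouse 07 (-0.91), FL-WT mouse 08 (-0.97) or FL-KO mouse 04 (-0.9985).

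Smarcc1 and Smarcc2 form the dimer on which the complex is built. Smarcc1 (ENSMUSG00000032481.17, chromosome 9, 110117708 to 110240178) was at 6.38 to 12.2 TPM (median 10.8) in GC-WT mice, 4.64 to 10.4 (6.50) in FL-WT mice, 4.09 to 7.95 (5.37) in GC-KO mice and 2.62 to 4.14 (3.10) in FL-KO mice. FL-KO mice lay below all FL-WT mice, and the other pairs compared overlapped. Its change ran from -0.50 in FL-WT against GC-WT (SE 0.17, adjusted p = 0.0345) to -0.87 in FL-KO against FL-WT (adjusted p = 0.000201), with -0.62 in FL-KO against GC-KO (adjusted p = 0.00707) and -0.74 in GC-KO against GC-WT (adjusted p = 0.00174) between them.

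Smarcc2 (ENSMUSG00000025369.15, chromosome 10, 128459248 to 128490482) was at 10.4 to 21.3 TPM (median 18.0) in GC-WT mice and 7.03 to 17.4 (9.41) in FL-WT mice. It was at 5.03 to 11.2 TPM (7.30) in GC-KO mice and 3.35 to 5.31 (3.90) in FL-KO mice, the latter below all FL-WT mice. Smarcc2 changed by -0.65 in FL-WT against GC-WT (SE 0.19, adjusted p = 0.0157), by -0.77 in FL-KO against GC-KO (adjusted p = 0.00347), by -1.04 in GC-KO against GC-WT (adjusted p = 0.000454) and by -1.16 in FL-KO against FL-WT (adjusted p = 2.72e-05). In GC-KO against GC-WT the change was under a fold of 2 without GC-WT mouse 06, 07 or 08 or GC-KO mouse 01, 02 or 04, at -0.99 to -0.94.

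Smarcd1 and Smarcd2 are adaptor subunits through which transcription factors reach the complex, and Smarcd2 is known for its part in granulocyte formation. Smarcd1 (ENSMUSG00000023018.5, chromosome 15, 99702129 to 99713991) was the lowest subunit, at 2.05 to 4.52 TPM (median 3.45) in GC-WT mice, 1.34 to 4.04 (2.005) in FL-WT mice, 1.05 to 2.46 (1.25) in GC-KO mice and 0.540 to 1.01 (0.6) in FL-KO mice. FL-KO mice lay below all GC-KO and all FL-WT mice. On the log2(TPM + 1) scale the change was -0.44 in FL-WT against GC-WT (adjusted p = 0.0503), -0.57 in FL-KO against GC-KO (adjusted p = 0.00974), -0.80 in GC-KO against GC-WT (adjusted p = 0.000738) and reached -0.94 in FL-KO against FL-WT (adjusted p = 5.44e-05), with an SE of 0.17. Its mean TPM in the last comparison was 3.41-fold lower, more than the log2 change shows, since 1 was added to each value.

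Smarcd2 (ENSMUSG00000078619.10, chromosome 11, 106263179 to 106272972) was the highest subunit, at 18.3 to 25.9 TPM (median 22.1) in GC-WT mice and 12.1 to 28.2 (16.5) in FL-WT mice. In Nrf2-KO mice it was at 9.33 to 17.8 TPM (11.7) on the ground and 5.59 to 9.07 (6.42) in flight. Every GC-KO mouse lay below every GC-WT mouse, and every FL-KO mouse below every GC-KO and FL-WT mouse. Smarcd2 changed by -0.79 in FL-KO against GC-KO (SE 0.17, adjusted p = 0.00115), by -0.79 in GC-KO against GC-WT (adjusted p = 0.00106) and by -1.29 in FL-KO against FL-WT (adjusted p = 2.39e-06). In FL-WT against GC-WT the value was -0.29 with a 95% interval of -0.64 to 0.06.

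The change with flight thus differed between genotypes by -0.50 for Smarcd2 (95% interval -0.998 to -0.0038). This interaction of flight and genotype had an unadjusted p of 0.0484 and an adjusted p of 1 from limma. None of the 9 subunits was called in the interaction, and Smarcd2 was the 1 subunit at an unadjusted p under 0.05. Over all tested genes 2 were called, or 0.0162%. For the other 8 subunits the interaction lay between -0.22 for Smarcb1 (95% interval -0.75 to 0.31) and 0.06 for Smarca2 (-0.45 to 0.57), intervals that leave room for differences in either direction.

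Smarce1 (ENSMUSG00000037935.16, chromosome 11, 99209047 to 99231017) brings an HMG box, a DNA-bending domain, to the complex. It was at 7.91 to 10.4 TPM (median 9.03) in GC-WT mice, 4.71 to 10.2 (6.85) in FL-WT mice, 5.09 to 8.07 (6.58) in GC-KO mice and 3.89 to 6.51 (5.33) in FL-KO mice. Neighbouring groups overlapped in all 4 comparisons. The change was -0.33 in FL-WT against GC-WT (SE 0.14, adjusted p = 0.0734), -0.41 in GC-KO against GC-WT (adjusted p = 0.021) and was -0.36 in FL-KO against FL-WT (adjusted p = 0.0393). In FL-KO against GC-KO it was -0.28 with a 95% interval of -0.56 to 0.01. Smarce1 lay between the 29.9th and the 52.1st percentile of all tested genes, counted from the largest fall, on this scale. After removal of trends with GC content and length it was at -0.46 in GC-KO against GC-WT (adjusted p = 0.000829) and at -0.38 in FL-KO against FL-WT (adjusted p = 0.0015), where the medians of all genes were 0.03 and 0.06.

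Arid1a and Arid1b carry the AT-rich interaction domain and exclude each other from a complex. Arid1a (ENSMUSG00000007880.16, chromosome 4, 133679008 to 133756769) was at 7.71 to 20.9 TPM (median 17.3) in GC-WT mice, 5.95 to 18.3 (8.93) in FL-WT mice, 3.10 to 8.64 (4.83) in GC-KO mice and 1.98 to 3.51 (2.31) in FL-KO mice. GC-WT mouse 10 was the 1 ground wild-type mouse within the GC-KO range, and FL-KO mice lay below all FL-WT mice. Arid1a changed by -0.67 in FL-WT against GC-WT (SE 0.24, adjusted p = 0.0378) and by -0.87 in FL-KO against GC-KO (adjusted p = 0.00667). It changed by -1.37 in GC-KO against GC-WT (adjusted p = 0.000411) and by -1.57 in FL-KO against FL-WT (adjusted p = 1e-05), where its mean TPM was 4.04-fold lower. In both comparisons of genotype Arid1a had the largest change of the 9, at the 0.380th and the 1.45th percentile of all tested genes.

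Arid1b (ENSMUSG00000069729.14, chromosome 17, 4994332 to 5347656) was at 5.37 to 11.2 TPM (median 8.90) in GC-WT mice and 3.15 to 9.29 (4.84) in FL-WT mice. It was at 2.09 to 5.34 TPM (2.70) in GC-KO mice and 1.19 to 2.45 (1.44) in FL-KO mice, so GC-KO mice lay just below all GC-WT mice and FL-KO mice below all FL-WT mice. The change was -0.67 in FL-WT against GC-WT (SE 0.21, adjusted p = 0.022), -0.71 in FL-KO against GC-KO (adjusted p = 0.0105), -1.19 in GC-KO against GC-WT (adjusted p = 0.000411) and stood at -1.23 in FL-KO against FL-WT (adjusted p = 3.43e-05).

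Since the median of all genes lay below 0 in each comparison, the subunits were also compared after other scalings between libraries. Median-of-ratios scaling brought the median of all genes to between -0.0012 and 0.03. The number of the 9 subunits lower at an adjusted p under 0.1 was then 2 in FL-WT against GC-WT, 7 in FL-KO against GC-KO, 8 in GC-KO against GC-WT and 8 in FL-KO against FL-WT, with medians of -0.16, -0.36, -0.53 and -0.75. The shares of all tested genes lower were 13.6%, 20.4%, 28.9% and 32.9% in the same order. At a fold change of at least 2, 1 subunit was left in each comparison of genotype. The share of all genes called at that fold change with this scaling is not given here. Quantile normalization gave the same 4 numbers, beside 14.6%, 18.0%, 28.2% and 29.3% of all genes, and in FL-KO against GC-KO Smarce1 was called higher by 0.12. Smarce1 was also above 0 with median-of-ratios scaling in both comparisons of flight with ground (0.01 and 0.11) and with quantile normalization in FL-KO against FL-WT (0.09). Smarcd2 in FL-WT against GC-WT was at 0.07 with median-of-ratios scaling. With the 5 small RNAs left out and TPM rescaled, 9, 7, 9 and 9 of the 9 subunits were lower, in the order of comparisons above. The shares of all tested genes lower were then 55.0%, 32.6%, 57.5% and 42.4%. The medians of the subunits were -0.54, -0.63, -1.01 and -1.14, where those of all genes were -0.29, -0.19, -0.31 and -0.18.

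Fold changes were set against GC content and transcript length. Spearman's rho with GC content was -0.04 in FL-WT against GC-WT, -0.32 in FL-KO against GC-KO, -0.45 in GC-KO against GC-WT and -0.54 in FL-KO against FL-WT, across 10306 of the tested genes, which are not independent replicates. Over the 10 subunits it was -0.16, -0.55, -0.39 and -0.67, as a description of 10 genes in the same libraries. With transcript length rho was -0.40, -0.30, -0.33 and -0.23 over the 10306 genes. Over the 10 subunits rho with length was -0.70, -0.33, -0.77 and -0.33. With both trends removed from each library, 1 of 9 subunits was lower at an adjusted p under 0.1 in FL-WT against GC-WT, 3 in FL-KO against GC-KO, 9 in GC-KO against GC-WT and 8 in FL-KO against FL-WT. Of all tested genes 15.2%, 14.3%, 21.8% and 22.5% were lower. The medians of the subunits were -0.12, -0.15, -0.29 and -0.38, where those of all genes were between 0.02 and 0.06, and no subunit reached a fold change of 2. The share of all genes that did so is not given here. Smarcb1 was then at 0.01 in FL-WT against GC-WT and Smarca2 at 0.09 in FL-KO against GC-KO. The part that GC content and length have in the difference between groups was not tested.

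**Figure D3:**
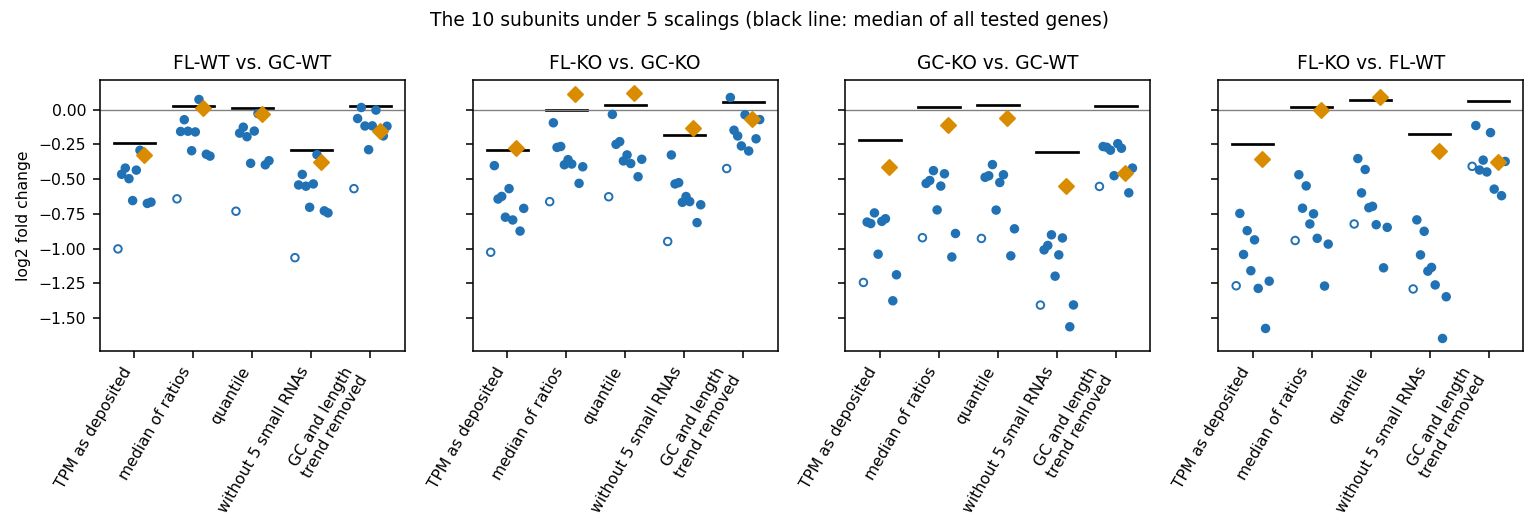
Log2 fold changes of the 10 subunits under 5 scalings, with a panel per comparison; the open circle is Smarca4, the orange diamond Smarce1, and the black line the median of all tested genes. After removal of the GC content and length trends, the medians of the 9 tested subunits rise to between -0.12 and -0.38, and Smarce1 no longer stands above the others.

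Of the 9 marker lists, 6 had their lowest median summed level in FL-KO mice. The median log2(TPM + 1) of all tested genes in a library was low there too, at 1.61 to 1.99. It was 2.31 to 2.63 in GC-WT, 1.82 to 2.62 in FL-WT and 1.98 to 2.47 in GC-KO libraries. A low sum in FL-KO mice is thus no result about the cells of a list alone. The summed TPM of 4 of 4 promyelocyte markers was 571.0 to 958.1 in GC-WT mice, 500.3 to 1163 in FL-WT mice, 337.9 to 761.1 in GC-KO mice and 299.3 to 438.4 in FL-KO mice. That of 9 of 9 B progenitor markers was 171.5 to 242.5, 84.1 to 213.6, 112.3 to 169.1 and 68.3 to 110.8 TPM in the same order. That of 5 of 5 stem and progenitor markers was 10.8 to 19.8, 9.20 to 19.6, 6.58 to 13.8 and 5.62 to 8.58 TPM, the FL-KO mice thus below all wild-type mice. Medians were 463.4, 547.2, 337.1 and 300.5 TPM for 5 of 5 monocyte markers, 153.3, 99.97, 141.0 and 68.21 TPM for 4 of 4 megakaryocyte markers, and 46.98, 32.8, 45.07 and 21.59 TPM for 3 of 3 osteoblast and stroma markers. For 5 of 5 T and NK markers they were 48.98, 48.28, 36.16 and 37.5 TPM. The order differed for neutrophil markers, at 42270, 61960, 50240 and 52440 TPM, and for erythroid markers, at 185300, 167000, 208000 and 196000 TPM. The part of these cells in the changes of the subunits was not tested.

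A ratio of paralogs within a library does not depend on the scaling between libraries. For the ATPases, Smarca4 exceeded Smarca2 3.78-fold in wild-type mice on the ground and 2.67-fold in flight, and in Nrf2-KO mice 3.05-fold and 1.95-fold (geometric means). All 6 FL-KO mice lay below all GC-KO mice, and 5 of 6 FL-WT mice below all GC-WT mice. Likewise all 6 GC-KO mice lay below all GC-WT mice, and 4 of 6 FL-KO mice below all FL-WT mice. This ratio contains Smarca4 and was not tested.

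The ratios of the other pairs were compared with exact two-sided permutation tests, which with 6 mice against 6 allow no p under 0.00216, adjusted over 12 tests. Smarcc1 was at 0.590 of Smarcc2 in wild-type mice on the ground and 0.652 in flight, and at 0.721 and 0.794 in Nrf2-KO mice. The log2 ratio was higher by 0.29 in GC-KO mice than in GC-WT mice (adjusted p = 0.026 from the exact permutation test, with all 6 GC-KO mice above all GC-WT mice). It was higher by 0.28 in FL-KO than in FL-WT mice (adjusted p = 0.0476, exact permutation test, 2 of 6 mice above all FL-WT mice), a call lost in 10 of 12 cases when a library was left out. With flight it differed by 0.15 in wild-type mice (adjusted p = 0.0747, exact permutation test) and by 0.14 in Nrf2-KO mice (adjusted p = 0.179, exact permutation test). After removal of the GC content and length trends and no pseudocount, no difference of this ratio passed 0.05, the genotype differences being 0.15 (adjusted p = 0.0831, exact permutation test) on the ground and 0.0047 (adjusted p = 0.959, exact permutation test) in flight.

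Smarcd1 was at 0.148 of Smarcd2 in wild-type mice on the ground and 0.120 in flight, and at 0.116 and 0.0974 in Nrf2-KO mice. The log2 ratio changed by -0.31 in FL-WT against GC-WT (adjusted p = 0.0476), by -0.25 in FL-KO against GC-KO (adjusted p = 0.0455) and by -0.30 in FL-KO against FL-WT (adjusted p = 0.0455), all from exact permutation tests. Leaving out a library ended these calls in 10, 6 and 6 of 12 cases. In GC-KO against GC-WT the difference was -0.36 (adjusted p = 0.0594, exact permutation test). Smarcd1 was near 1 TPM, with a mean of 0.675 TPM in FL-KO mice against 6.85 TPM for Smarcd2. Adding 1 to both genes shrinks the changes of Smarcd1 more than those of Smarcd2, and the direction depended on this pseudocount. With 1 added to both genes the difference was 0.23 in FL-KO against GC-KO (adjusted p = 0.013, exact permutation test) and 0.35 in FL-KO against FL-WT (adjusted p = 0.00866, exact permutation test).

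Arid1a exceeded Arid1b 1.81-fold in wild-type mice on the ground and 1.87-fold in flight, and 1.69-fold and 1.60-fold in Nrf2-KO mice. The log2 ratio changed by -0.23 in FL-KO against FL-WT, with 5 of 6 FL-KO mice below all FL-WT mice (adjusted p = 0.039, exact permutation test), a call lost in 6 of 12 cases when a library was left out. After removal of the GC content and length trends and no pseudocount, this difference was -0.10 (adjusted p = 0.278, exact permutation test). The other differences of this ratio lay between -0.10 and 0.05 with adjusted p-values of 0.317 to 0.656 (exact permutation test). RSEM shares reads between similar transcripts, and how far paralogs exchange reads cannot be read from TPM.

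**Figure D4:**
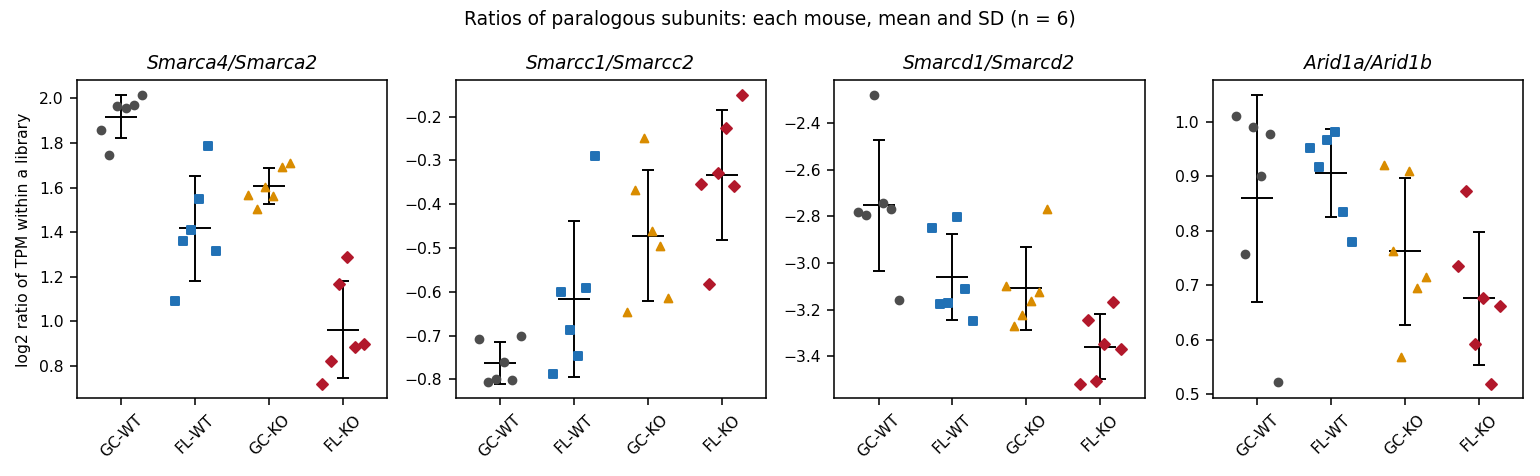
Log2 ratio of TPM of paralogous subunits within each of the 24 libraries, with mean and SD of 6 mice per group. The ratio of Smarca4 to Smarca2 has its lowest values in FL-KO mice, and all 6 GC-KO mice lie above all GC-WT mice for Smarcc1 to Smarcc2.

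Other subunits of BAF and related complexes were read from a list of 21 genes. Of these, 17 were tested, and Smarcd3, Dpf1, Actl6b and Ss18l1, the first the muscle paralog of Smarcd1 and the others found in neuronal complexes, stayed at or under 0.790 TPM. At an adjusted p under 0.1, 12 of 17 were lower in FL-WT against GC-WT, 15 in FL-KO against GC-KO, 11 in GC-KO against GC-WT and 13 in FL-KO against FL-WT, and none was higher. The shares of all tested genes lower were 39.0%, 53.1%, 42.9% and 47.2% in the same order. The medians of the list were -0.41, -0.46, -0.42 and -0.42, where those of all genes were -0.24, -0.29, -0.22 and -0.25. At a fold change of at least 2 the calls were Bcl7a, a small accessory subunit, in FL-WT against GC-WT, none in FL-KO against GC-KO, Actb and Bicra in GC-KO against GC-WT, and Actb, Bicra and Dpf2 in FL-KO against FL-WT.

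Bcl7a was at 8.53 ± 1.27 TPM (SD, n = 6) on the ground and 3.48 ± 1.49 TPM (SD, n = 6) in flight in wild-type mice. It changed by -1.14 (SE 0.17, limma adjusted p = 5.96e-05), and in FL-KO against GC-KO by -0.75 (adjusted p = 0.00148). Dpf3, a reader of histone acetylation, changed by -0.75 in FL-WT against GC-WT (adjusted p = 5.51e-05) and by -0.76 in FL-KO against GC-KO (adjusted p = 2.55e-05). Bicra, a subunit of the non-canonical complex, was at 4.78 ± 1.29 TPM in GC-WT mice and 1.38 ± 0.791 TPM in GC-KO mice (SD over 6 mice each), a change of -1.31 (adjusted p = 0.000339 from limma). In flight its change with genotype was -1.30 (adjusted p = 2.14e-05). Dpf2, which reads modified histone tails, was at 8.44 ± 3.04 TPM in FL-WT and 3.02 ± 0.233 TPM in FL-KO mice (SD over 6 mice each), a change of -1.18 (adjusted p = 4.11e-06 from limma). Actb, whose actin is a subunit but mostly serves the cytoskeleton, changed by -1.10 in GC-KO against GC-WT (adjusted p = 0.000717) and by -1.49 in FL-KO against FL-WT (adjusted p = 9.87e-06). Values above 0 in this list were 0.03 for Bcl7c in FL-WT against GC-WT and, for Dpf3, 0.09 in GC-KO against GC-WT and 0.08 in FL-KO against FL-WT, none of which passed the test.

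ATPases of the other remodeller families were read from a list of 24, of which 22 were tested. At an adjusted p under 0.1, 17 were lower in FL-WT against GC-WT, 20 in FL-KO against GC-KO, 14 in GC-KO against GC-WT and 12 in FL-KO against FL-WT, with medians of -0.44, -0.35, -0.40 and -0.33 and none higher, to be read against the same shares and medians of all genes. No ATPase had a value above 0 in any of the 4 comparisons, and Smarca1 and Chd5, not tested, stayed at or under 0.150 TPM. The 1 ATPase called at a fold change of at least 2 was Chd4, the motor of the NuRD complex, in GC-KO against GC-WT (-1.05, SE 0.22, adjusted p = 0.000895 from limma) and in FL-KO against FL-WT (-1.27, adjusted p = 5.16e-05 from limma). Srcap, which deposits the histone variant H2A.Z, changed by -0.80 in FL-WT against GC-WT (adjusted p = 0.00507), by -0.76 in FL-KO against GC-KO (adjusted p = 0.00469), by -0.95 in GC-KO against GC-WT (adjusted p = 0.000798) and by -0.90 in FL-KO against FL-WT (adjusted p = 0.000529). Ep400, of the related TIP60 complex, changed by -0.59 in FL-WT against GC-WT (adjusted p = 0.00334), and Chd4 by -0.80 in FL-KO against GC-KO (adjusted p = 0.00745). No test was made of whether the 9 subunits differed from these lists.

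The genes whose log2(TPM + 1) was most like that of Smarca4 over the 24 libraries, among the 5024 genes averaging 5 TPM or more, were Acin1 (Pearson's r 0.993), Kdm5c (0.991), Usp19 (0.989), Baz2a (0.989) and Cd93 (0.988). The measure is a description. All points share the 4 groups and the scaling of their library, the median r of all 5024 genes was 0.749, and 26.7% exceeded 0.9. Of the subunits, of which Arid1b (4.73 TPM), Smarca2 (3.398 TPM) and Smarcd1 (1.97 TPM) average less than those genes, Smarcc2 ranked eleventh (0.987) and Arid1b followed at 0.983, Smarcc1 at 0.978, then Smarcd1, Arid1a at 0.973, Smarca2 at 0.964, Smarcb1 at 0.963 and Smarcd2 at 0.953. Smarce1 had the lowest r, 0.897, and 0.790 once the group means were removed. The plot against Smarca4 shows that FL-KO mice fill the lower end for Smarcc2 and Arid1a, while for Smarce1 they overlap FL-WT and GC-KO mice.

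**Figure D5:**
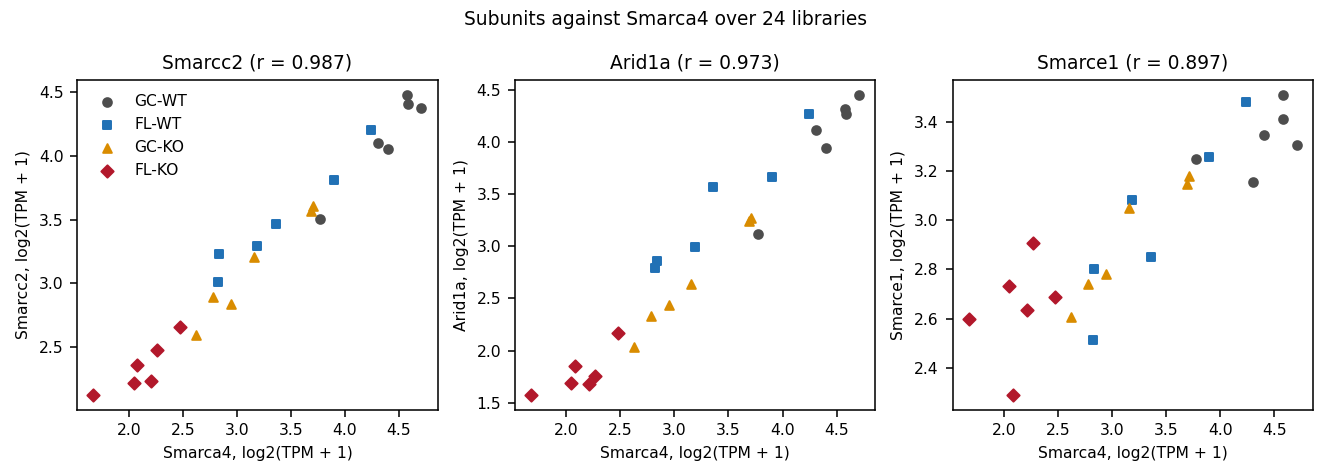
Log2(TPM + 1) of Smarcc2, Arid1a and Smarce1 against that of Smarca4 in 24 libraries, coloured by group. The libraries of the 4 groups follow a line for Smarcc2 (r = 0.987) and Arid1a (r = 0.973) and scatter more for Smarce1 (r = 0.897).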

How the data were processed

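Per the authors' notes, STAR 2.6.1 aligned the reads to mm10 and RSEM 1.3.1 quantified genes, and the authors deposited TPM for 54752 genes in 24 libraries. Library columns sum to 999999.5 to 1000001.1. Read counts are not used here, so depth and counting error are unknown. Groups came from the sample labels. The annotation was GENCODE M21 on GRCm38, in which 54723 gene IDs matched.

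Genes above 1 TPM in at least 1 library were tested on log2(TPM + 1) values by limma 3.58.1 (R 4.3.3), fitting all 24 libraries with 4 group means and Benjamini-Hochberg adjustment. Calls needed an adjusted p under 0.1, with or without a fold change of at least 2. The steps were tested on simulated data. Paralog ratios used no pseudocount and passed at an adjusted p under 0.05. Tables and plots were made with matplotlib 3.10.9, scipy 1.17.1, pandas 2.3.3 and numpy 2.4.6 (Python 3.11.15). Promoter windows were those of RefSeq.

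The subunits and gene lists were chosen with earlier results of these data known. Besides the subunits and Nfe2l2, the genes named were those called in either list, the 2 with the largest change per list and comparison, and the 5 most like Smarca4. An erythroid marker is not analysed here. Alternatives covered the pseudocount, filter, scaling, variance trend, groups fitted, thresholds, GC content and length, mouse number as a block, and single libraries. Leaving out GC-WT mouse 10 and FL-WT mouse 07 together, ratios with a pseudocount of 1, and the GC content and length trends with no pseudocount were chosen after seeing the data.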

Additional observations from a re-analysis of the deposited data

Results flagged for a closer look

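Of 56 sets of 6 values examined, 2 held a mouse whose gap to the nearest other mouse took up more of the range of its group than Dixon's 95% critical value, which chance alone exceeds in about 1 in 20. Arid1b in FL-KO mouse 11 was at 2.45 TPM, with a gap of 0.762 of the range. The log2 ratio of Smarcd1 to Smarcd2 in GC-KO mouse 12 was -2.77, with a gap of 0.654 of the range.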

How the results depend on the processing

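The counts of the 9 subunits called lower at 2-fold or more were 0 in FL-WT against GC-WT, 0 in FL-KO against GC-KO, 3 in GC-KO against GC-WT and 5 in FL-KO against FL-WT. The shares of all tested genes were 0.938%, 2.13%, 3.04% and 8.36% in the same order. With no minimum fold change the counts of subunits were 8, 8, 9 and 9, beside 39.0%, 53.1%, 42.9% and 47.2% of all tested genes. With a pseudocount of 0.1 the counts other than that of FL-WT against GC-WT were 2, 5 and 8. Median-of-ratios scaling and quantile normalization each left 1 in both comparisons of genotype, and removing the GC content and length trends left 0 in both. Without 5 small RNAs GC-KO against GC-WT had 5. Without GC-WT mouse 10 and FL-WT mouse 07, which were picked for their subunit levels, FL-WT against GC-WT had 1. With each library left out, the counts ran from 2 to 3 in GC-KO against GC-WT and from 4 to 6 in FL-KO against FL-WT, and were 0 in the other comparisons. The shares of all tested genes called at 2-fold or more under these alternatives are not given here. A changed count is therefore no result about the subunits alone. The causes of these changes were not tested.

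Of 880 values of single subunits under alternatives, 9 changed direction. Many of the 880 could not do so, since the filter, the variance trend, the groups fitted and the block alone leave a fold change as it was. All 9 came with median-of-ratios scaling, quantile normalization or removal of the GC content and length trends. With median-of-ratios scaling Smarcd2 was at 0.072 and Smarce1 at 0.0090 in FL-WT against GC-WT, and Smarce1 at 0.11 in FL-KO against GC-KO. With quantile normalization Smarce1 was at 0.12 in FL-KO against GC-KO and at 0.089 in FL-KO against FL-WT. Removing the GC content and length trends, with or without the mouse number as a block, put Smarcb1 at 0.015 in FL-WT against GC-WT and Smarca2 at 0.087 in FL-KO against GC-KO.

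Log2 paralog ratios changed as follows, with exact permutation tests. With a pseudocount of 0.1, Smarcc1/Smarcc2 was 0.28 in FL-KO against FL-WT, and Smarcd1/Smarcd2 was -0.28 in FL-WT against GC-WT, -0.15 in FL-KO against GC-KO and -0.17 in FL-KO against FL-WT, none under 0.05. By rank sums the differences of 0.28 and -0.30 in FL-KO against FL-WT had an adjusted p of 0.0519 each (exact test). After removal of the GC content and length trends on the log2(TPM + 1) scale, Smarcc1/Smarcc2 was 0.17 in FL-WT against GC-WT, now under 0.05, and 0.085 in FL-KO against FL-WT. Smarcd1/Smarcd2 was -0.11 in FL-WT against GC-WT and turned to 0.26 in FL-KO against GC-KO, 0.033 in GC-KO against GC-WT and 0.41 in FL-KO against FL-WT, and Arid1a/Arid1b to -0.069 in FL-WT against GC-WT. With a pseudocount of 1 alone, Smarcc1/Smarcc2 was 0.16 (under 0.05) and Smarcd1/Smarcd2 -0.14 in FL-WT against GC-WT. Smarcd1/Smarcd2 turned to 0.23 in FL-KO against GC-KO and 0.35 in FL-KO against FL-WT, and Arid1a/Arid1b was -0.0094 in FL-WT against GC-WT and -0.16 (under 0.05) in FL-KO against GC-KO. With the trends removed and no pseudocount, Smarcc1/Smarcc2 was 0.15 in GC-KO against GC-WT and 0.0047 in FL-KO against FL-WT. Smarcd1/Smarcd2 was then -0.26 in FL-WT against GC-WT, -0.19 in FL-KO against GC-KO and -0.21 in FL-KO against FL-WT, and Arid1a/Arid1b -0.030 in FL-WT against GC-WT and -0.10 in FL-KO against FL-WT.

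With each library left out, the ratios in FL-WT against GC-WT ran from 0.080 to 0.18 for Smarcc1/Smarcc2, from -0.39 to -0.21 for Smarcd1/Smarcd2 and from -0.022 (without GC-WT mouse 10) to 0.076 for Arid1a/Arid1b. In FL-KO against GC-KO they ran from 0.10 to 0.19, -0.29 to -0.18 and -0.13 to -0.05. In GC-KO against GC-WT they ran from 0.25 to 0.32, -0.44 to -0.26 and -0.17 to -0.06, and in FL-KO against FL-WT from 0.25 to 0.35, -0.34 to -0.25 and -0.27 to -0.20. Of the differences that passed, that of Smarcc1/Smarcc2 in GC-KO against GC-WT alone passed 0.05 without each library (adjusted p 0.026 to 0.039, exact permutation test).

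Ground and flight mice of a genotype share numbers and the genotypes do not, so comparisons of genotype had no block. Correlations of deviations of same-numbered mice ran from -0.026 to 0.273. Of 24 libraries, 8 correlated best with their own number among the 6 mice of their genotype in the other condition. Whether this exceeds chance was not tested, and the main fits did not take the numbers as pairs. With the number as a block, 0 subunits were called with fold in FL-WT against GC-WT, 0 in FL-KO against GC-KO and 0 in the interaction. Depth is unknown, so no limit from counting can be given.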
